A study of Mus musculus with 2 samples.

Results

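Cholesterol and fatty acids are built from the same cytosolic precursor, acetyl coenzyme A, by 2 sets of enzymes that tumour cells use to make membrane. The 36 genes described here comprise 18 enzymes of the sterol route, 13 genes of fatty acid synthesis, elongation and desaturation, and 5 genes of the regulatory system that both routes share. They were chosen by name, as all spots that are not controls and whose gene name is a member or an older name of it, and they stand beside 28785 gene names on the array. All 36 were measured on both arrays, through 66 of their 67 probes. The third probe of Insig2 was too dim in the standard environment pool and was left out. Me1 is listed under its older name Mod1, and Sc4mol is now called Msmo1.

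The tumours grew under the skin of C57BL/6 mice after injection of Panc02 cells, a mouse pancreatic carcinoma line. The enriched environment mice lived in housing that offers more stimulation than ordinary cages, and the standard environment mice in ordinary cages. All were 3 weeks old when assigned to a housing, and their tumours were taken 5 weeks after the injection. Per housing, tumour RNA of 6 animals was combined and hybridised to 1 array, both arrays on the same slide, so each group is a single sample, the values hold no spread between mice, and no test between the housings was possible.

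In the sterol route, acetyl units are joined and reduced to mevalonate, which is converted through isoprenoid units to squalene. Squalene is then oxidised, folded into lanosterol and trimmed to cholesterol. Fatty acid synthesis starts when citrate is cleaved to acetyl coenzyme A, which acetyl coenzyme A carboxylase and fatty acid synthase turn into palmitate, and elongases and desaturases modify the chain. The genes of both routes are switched on by sterol regulatory element binding proteins (SREBPs), membrane-bound factors that the escort protein Scap carries out of the endoplasmic reticulum when sterol is low and that the Insig proteins hold back when sterol is plentiful. The factor encoded by Srebf2 acts mainly on sterol genes, and a product of Srebf1 mainly on fatty acid genes.

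Most sterol enzymes were higher, and most genes of fatty acid synthesis lower, in the enriched environment pool. Below, a level is a log2 intensity from which the array's 75th percentile was subtracted, averaged over the probes of a gene, and a difference is the enriched minus the standard environment level. Among the sterol enzymes 14 of 18 were higher in the enriched environment pool, with a median difference of 0.36 and a range of -0.13 to 1.14. Among the 6 genes of fatty acid synthesis 5 were lower, with a median of -0.97 and a range of -3.41 to 0.09. The lowest of them was Acacb, while Acaca at -0.10 and Acly at 0.09 were near 0. The 7 elongases and desaturases had a median of 0.35 and the 5 regulators one of 0.15. Over all 20861 genes measured on both arrays the median was 0.03, and 52.2% were higher in the enriched environment pool.

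Few members passed 2-fold, a log2 difference of 1. In the enriched environment pool 1 of 36 members, Cyp51, was at least 2-fold higher, against 5.73% of all measured genes. At least 2-fold lower there were 3 members, Acacb, Fasn and Thrsp, against 9.46% of all measured genes. All 3 belong to the 6 fatty acid synthesis genes, and none of the 18 sterol enzymes was among them. At 1.5-fold, 8 members were higher, against 15.0% of all genes, and 6 of the 8 were sterol enzymes. Lower by at least 1.5-fold were 5 members, against 18.2% of all genes, and none of these was a sterol enzyme. Over all 36 members the median absolute difference was 0.39, and over all measured genes it was also 0.39, so these genes as a whole were no further apart between the pools than genes at large. Without replicates these counts describe the 2 pools and are not a test of the branches.

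**Figure D1:**
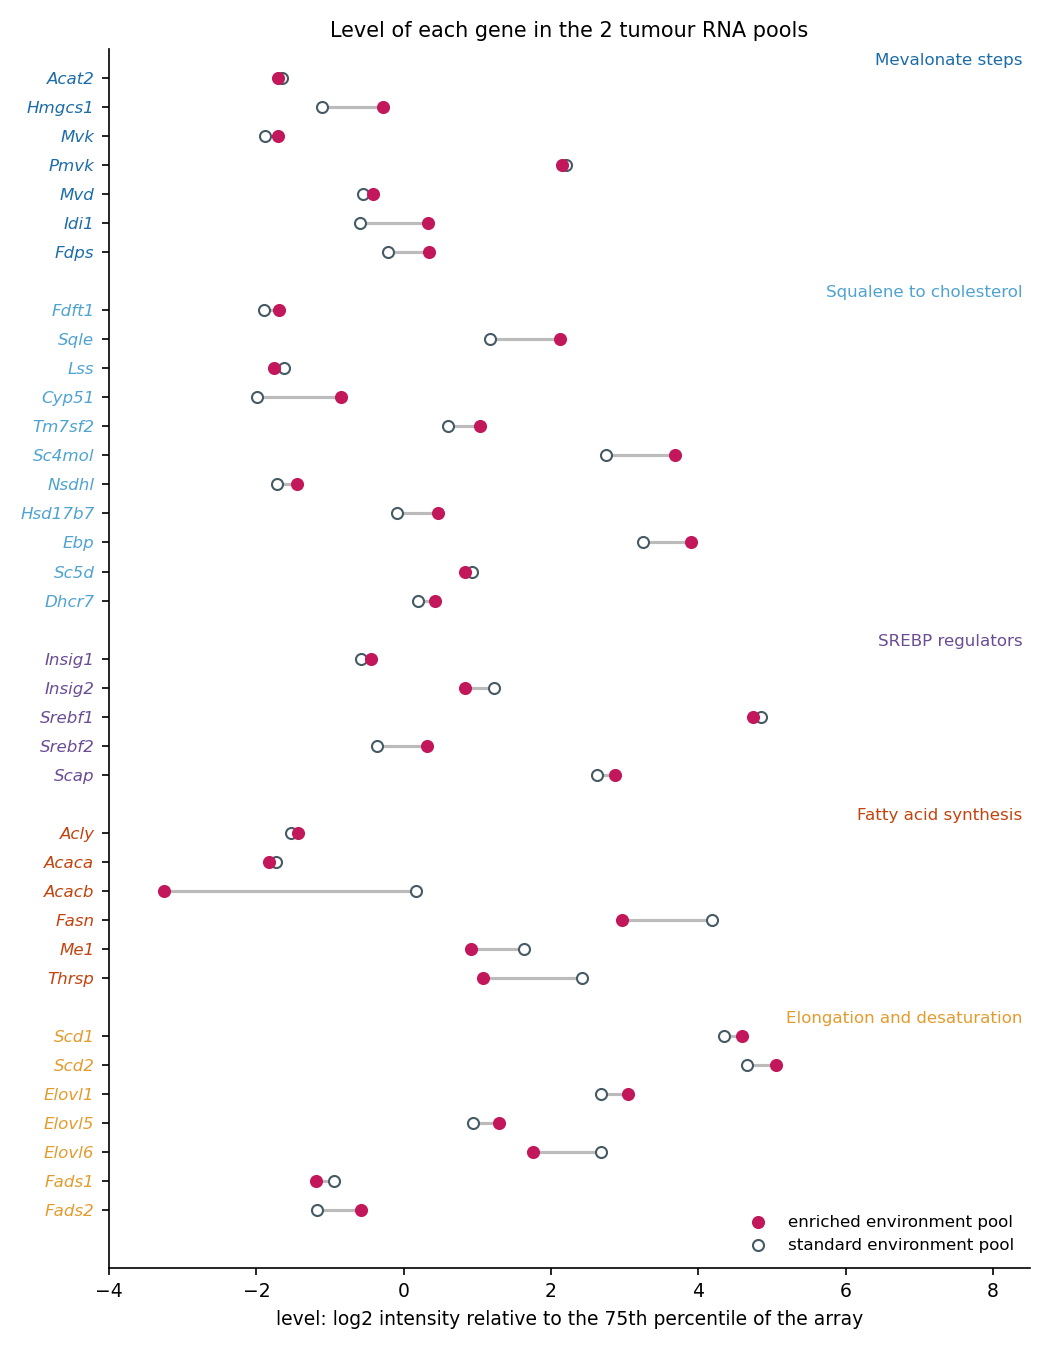
Level of each of the 36 genes in the enriched environment pool (filled circles) and the standard environment pool (open circles), as log2 intensity minus the array's 75th percentile, 1 array per pool. Positions compare the pools within a gene and not genes with each other; the widest gap is that of Acacb, at -3.25 in the enriched and 0.16 in the standard environment pool.

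The precision of a difference can be judged only from the arrays themselves. The errors that the scanner software assigns to spots came to 0.204 to 0.261 in the log2 difference of a measured member probe. Over the 6615 genes with several probes, the SD between the differences of their probes had a median of 0.17. By the first measure 25 of the 36 members differed by more than the software's error, 11 of the 18 sterol enzymes among them. That error was close to 10% of the intensity for most member probes, so it acted as a nearly fixed cut. The median absolute difference of all measured genes, 0.39, also lay above it, so passing it does not set the members apart. Of the 21 members with several measured probes, 5 had probes on both sides of 0, namely Mvk, Lss, Sc5d, Acly and Acaca. Among all 6615 genes with several probes, 73.5% had every probe on the same side of 0. The members were close to that share, so this count does not set them apart. Neither the software's error nor the SD between probes covers the spread between mice.

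Markers of several cell types differed more between the pools than most members did, and their part in the values below was not tested. In bulk RNA, fewer cells of a type and less RNA per cell cannot be told apart. All 19 skeletal muscle markers were lower in the enriched environment pool, with a median of -8.16, and took 0.102% of the summed signal there and 4.63% in the standard environment pool. Ckm, a muscle energy enzyme, had a level of -2.40 in the enriched and 6.16 in the standard environment pool, and the 3 brightest markers, Tnnc2, Tnni2 and Myh4, differed by -6.68, -3.08 and -6.74. All 6 measured brown adipocyte markers were lower, with a median of -5.44, and took 0.00249% of the signal in the enriched and 0.160% in the standard environment pool. Ucp1, the uncoupling protein that defines these cells, was at -4.70 in the enriched and 4.16 in the standard environment pool, and Cox8b and Cidea differed by -6.99 and -5.91. The 3 others, Elovl3, Otop1 and Zic1, were well above background in the standard environment pool only. Of the 6 measured markers Cox8b was the brightest, at 6.71 in the standard environment pool. Whether muscle also supplied transcripts of these brown adipocyte markers was not tested. General adipocyte markers were higher in 11 of 14 measured genes, with a median of 0.94, and took 0.659% of the signal in the enriched and 0.338% in the standard environment pool. Among them Adipoq differed by 2.40, Cfd by 3.11, Cidec by 2.20 and Fabp4 by 0.34, and the 3 lower ones were Pnpla2 at -0.95, Lpl at -0.75 and Aqp7 at -0.04. The 16 carcinoma epithelium markers, a check of the labelled tumour, were measured on both arrays and took 1.18% of the signal in the enriched and 0.289% in the standard environment pool. All of them were higher, with a median of 1.86, and Epcam differed by 2.07, Krt8 by 2.14, Krt18 by 1.59 and Msln by 2.43. With a median of 0.83, all 15 proliferation genes were higher, Mcm6 by 0.80, Birc5 by 0.64 and Cdc20 by 0.90. Macrophage markers were at a median of 0.03 over 10 genes, with Lyz2 at -0.03, C1qa at -0.09 and C1qb at -0.11. Schwann cell markers, from a cell type known for strong sterol synthesis, had a median of -0.45 over 11 measured genes, with S100b at -1.79, Egr2 at 0.89 and Cnp at -0.48. Of 8 sebocyte markers, chosen because skin glands make lipid, only Krt79, at 2.13, and Scd3, at -0.48, were measured on both arrays. The sebocyte receptor gene Mc5r was at -5.16 in the enriched environment pool and not well above background, at -5.90, in the standard environment pool.

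The starts of the members' genes shared sequence letters that the choice of genes did not use. RefSeq windows on GRCm38.p6, from 250 bases before to 50 after a transcript start, were given for 30 members. Fads1, Fdft1, Fdps, Scd1, Scd2 and Sqle had no entry. The letters CCAAT, the binding motif of nuclear factor Y, which acts beside SREBPs at sterol genes, were searched on both strands, where they read ATTGG on the other one. They occurred in 14 of 15 sterol enzyme genes, in 4 of 5 regulators and in 7 of 10 fatty acid genes, against 41.1% of the 27025 genes with a window. GGGCGG, the binding motif of Sp1, occurred in 14 of 15 sterol enzyme genes, in 5 of 5 regulators and in 4 of 10 fatty acid genes, against 38.2% of genes. The windows differ in base composition, which was not matched, and genes with several starts have several windows.

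Sterol regulatory elements were rarely found as exact letters. The looser form searched, TCACNCCAC, occurred in 1 member, Hmgcs1, and in 1.44% of genes. The strict form, which has an A before these letters and C at N, occurred in 0 of 30 members and in 0.0999% of genes. Both forms miss many variants of the element. CACGTG, the E-box, occurred in 3 of 15 sterol enzyme genes, 2 of 5 regulators and 1 of 10 fatty acid genes, against 8.09% of genes. A match describes letters and is no evidence of binding.

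The 250 bases before the start are shown for the sterol genes with the largest differences among those with a window, and for the 3 fatty acid genes that were at least 2-fold lower. Each is written 5′ to 3′ on the strand of its gene, with CCAAT or ATTGG and the looser sterol element in capitals. The first 4 belong to genes with differences of 0.83 to 1.14, the last 3 to genes with differences of -3.41 to -1.23.
Hmgcs1 (chr13:119690101-119690350, plus strand): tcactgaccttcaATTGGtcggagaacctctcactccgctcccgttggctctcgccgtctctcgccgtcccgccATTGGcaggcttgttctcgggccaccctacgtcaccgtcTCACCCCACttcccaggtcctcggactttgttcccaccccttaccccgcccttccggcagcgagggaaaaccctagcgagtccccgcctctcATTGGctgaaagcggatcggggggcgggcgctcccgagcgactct
Idi1 (chr13:8885356-8885605, plus strand): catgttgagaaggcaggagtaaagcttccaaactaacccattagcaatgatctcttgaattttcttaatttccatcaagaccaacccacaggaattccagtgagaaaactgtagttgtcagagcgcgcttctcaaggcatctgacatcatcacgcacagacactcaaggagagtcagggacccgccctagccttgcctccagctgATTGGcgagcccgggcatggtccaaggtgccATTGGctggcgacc
Cyp51 (chr5:4104698-4104947, minus strand): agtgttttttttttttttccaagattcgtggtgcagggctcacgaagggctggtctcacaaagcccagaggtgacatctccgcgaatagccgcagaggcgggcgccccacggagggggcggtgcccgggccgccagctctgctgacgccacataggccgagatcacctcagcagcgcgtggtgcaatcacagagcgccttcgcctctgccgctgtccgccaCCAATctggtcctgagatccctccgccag
Sc4mol (chr8:64733579-64733828, minus strand): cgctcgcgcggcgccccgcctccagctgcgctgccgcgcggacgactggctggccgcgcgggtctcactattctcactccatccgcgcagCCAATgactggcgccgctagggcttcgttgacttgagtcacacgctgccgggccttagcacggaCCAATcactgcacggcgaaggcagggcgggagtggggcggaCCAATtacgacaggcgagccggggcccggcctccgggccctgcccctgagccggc
Acacb (chr5:114165268-114165517, plus strand): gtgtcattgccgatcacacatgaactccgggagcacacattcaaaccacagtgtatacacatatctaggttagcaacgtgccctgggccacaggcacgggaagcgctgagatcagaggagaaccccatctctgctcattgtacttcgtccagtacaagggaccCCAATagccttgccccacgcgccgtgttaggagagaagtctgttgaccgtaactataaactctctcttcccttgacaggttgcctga
Fasn (chr11:120824548-120824797, minus strand): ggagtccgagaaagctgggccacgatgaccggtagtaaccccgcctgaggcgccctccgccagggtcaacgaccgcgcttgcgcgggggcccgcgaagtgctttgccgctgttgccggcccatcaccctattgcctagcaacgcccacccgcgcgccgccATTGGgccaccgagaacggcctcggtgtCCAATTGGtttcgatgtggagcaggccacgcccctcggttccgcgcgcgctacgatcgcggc
Thrsp (chr7:97417551-97417800, minus strand): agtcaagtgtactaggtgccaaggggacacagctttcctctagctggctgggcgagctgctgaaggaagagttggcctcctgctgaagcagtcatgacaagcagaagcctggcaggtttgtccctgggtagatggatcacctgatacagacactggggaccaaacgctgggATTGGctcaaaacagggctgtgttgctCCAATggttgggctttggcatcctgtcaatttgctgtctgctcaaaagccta

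The 7 stretches all hold CCAAT on 1 of the strands, whichever way the gene differed between the pools. Hmgcs1 and Sc4mol have 3 copies each, Idi1 2 and Cyp51 1, and in the fatty acid genes Fasn has 3, of which 2 overlap in CCAATTGG, Thrsp 2 and Acacb 1. The looser sterol element stands in the Hmgcs1 window alone, 137 bases before the start. Among the higher genes the share of G and C was 72.0% in Sc4mol, 64.8% in Hmgcs1, 62.8% in Cyp51 and 51.2% in Idi1. Among the lower genes it was 69.2% in Fasn, 53.6% in Thrsp and 52.4% in Acacb, so the ranges overlapped.

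The early steps, from acetyl units to farnesyl diphosphate, were split between 3 genes that were higher and 4 that hardly differed. Hmgcs1 encodes the cytosolic synthase that makes hydroxymethylglutaryl coenzyme A and is a classical SREBP target. Its level was -0.28 in the enriched and -1.11 in the standard environment pool, a difference of 0.83 or 1.78-fold (SD between probes 0.08, 3 probes). Its 3 probes differed by 0.79, 0.79 and 0.93. In the enriched environment pool they were at -2.60, 3.86 and -2.09 in the same order, so the mean level matches none of them. With another background correction, normexp, the difference of Hmgcs1 was 0.58. Idi1, the isomerase that supplies dimethylallyl diphosphate, was at 0.33 in the enriched and -0.59 in the standard environment pool, a difference of 0.93 or 1.90-fold, with its 2 probes at 0.79 and 1.06. Fdps, which joins isoprenoid units to farnesyl diphosphate, was at 0.34 in the enriched and -0.22 in the standard environment pool, a difference of 0.56, with its 2 probes at 0.41 and 0.70. Each of the 7 probes for Hmgcs1, Idi1 and Fdps had a positive difference.

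The kinases and the decarboxylase between them stayed close to 0. Mvk, mevalonate kinase, was at -1.71 in the enriched and -1.88 in the standard environment pool, and its 2 probes differed by -0.01 and 0.34. Pmvk, phosphomevalonate kinase, was at 2.15 in the enriched and 2.20 in the standard environment pool, a difference of -0.05. Mvd, the decarboxylase that follows, differed by 0.14 and Acat2, the thiolase that joins the first acetyl units, by -0.05, each on 1 probe. None of these 4 genes was past the software's error of 0.204, and the signs of Mvk, Pmvk and Acat2 turned under at least 1 other way of processing.

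For 2 of these genes the array design does not place the probes on the chromosome of the gene. On mm7, the build of the design, both Idi1 probes lie on chromosome 2, at 53701852-53701911 and 53703843-53703902, and the 3 Hmgcs1 probes lie on unplaced sequence. RefSeq's gene table of GRCm38.p6 lists both genes on chromosome 13. Whether the probes of Idi1 and Hmgcs1 also bind other transcripts could not be checked without a genome sequence. The other 34 members have all their probes on the chromosome of that table.

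The enzymes from squalene synthesis onward included the member with the largest positive difference. Cyp51, the lanosterol demethylase, was at -0.85 in the enriched and -1.99 in the standard environment pool, a difference of 1.14 or 2.20-fold (SD between probes 0.12, 3 probes). Its 3 probes, on mm7 chromosome 5 between 4087477 and 4098445, differed by 1.0, 1.17 and 1.24, so each of them was at or above 2-fold. With the normexp background correction, which shrinks differences of dim spots, Cyp51 differed by 0.93 and was below 2-fold.

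Sqle and Sc4mol stood just below 2-fold. Sqle, squalene epoxidase, the first oxygen-dependent step, was at 2.12 in the enriched and 1.17 in the standard environment pool, a difference of 0.95 or 1.94-fold on its 1 probe. Sc4mol, the methyl sterol oxidase that acts downstream of Cyp51, was at 3.68 in the enriched and 2.75 in the standard environment pool, a difference of 0.93 or 1.91-fold on its 1 probe. Sqle passed 2-fold narrowly with median scaling, at 1.01, and Sc4mol in the authors' deposited values, at 1.05, after quantile normalization, at 1.03, and barely with the normexp correction. Ebp, the sterol isomerase, was at 3.90 in the enriched and 3.25 in the standard environment pool, a difference of 0.65, and Hsd17b7, a ketoreductase of sterol demethylation, differed by 0.55 with probes at 0.37 and 0.74.

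The remaining enzymes of this stretch differed less. Tm7sf2, a sterol reductase, was at 1.03 in the enriched and 0.60 in the standard environment pool, a difference of 0.44. Nsdhl, the dehydrogenase that partners Sc4mol, differed by 0.27 over 4 probes that ranged from 0.14 to 0.64. Dhcr7, a reductase at the end of the route, differed by 0.23, and Fdft1, squalene synthase, by 0.20.

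For Lss and Sc5d the probes did not give 1 direction. Lss, lanosterol synthase, averaged -1.76 in the enriched and -1.63 in the standard environment pool. Its 3 probes differed by -1.14, -0.14 and 0.88 (SD 1.01), so the mean of -0.13 lies near 1 of them and far from the others. The probe at -1.14 lies on mm7 chromosome 10 at 76206315-76206374, and the probe at 0.88 at 76208898-76208957. Sc5d, a sterol desaturase, had probes at -0.41 and 0.21, and its brighter probe is the positive one. Counted by probe, 28 of the 35 sterol enzyme probes were higher in the enriched environment pool and 7 were lower, and in the steps from squalene onward 19 of 22 were higher. Probes of the same gene are not separate observations, and the share over all probes is not given here. Counted by gene, 14 of the 18 enzymes were higher, against 52.2% of all measured genes.

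**Figure D2:**
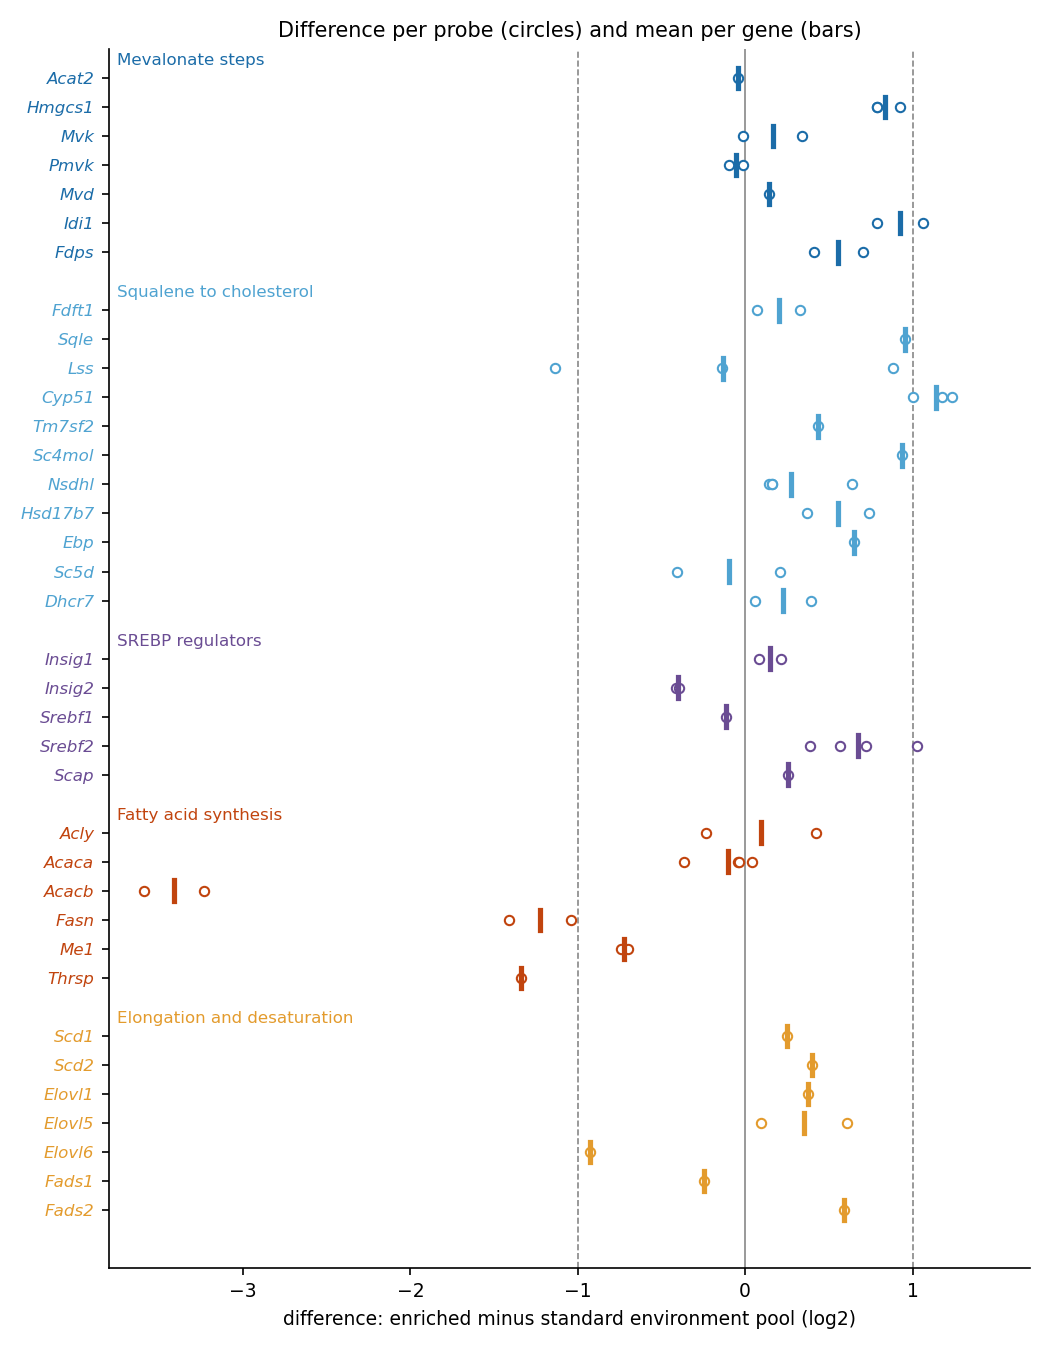
Enriched minus standard environment difference (log2) of each measured probe (circles) and the mean per gene (bars), with genes grouped and coloured by branch and dashed lines at 2-fold. The 3 probes of Cyp51 lie at or above the upper line and both probes of Acacb and of Fasn below the lower one, while the 3 probes of Lss spread from -1.14 to 0.88.

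Among the regulators, the gene for the sterol-directed factor was higher and that for the factor of fatty acid genes hardly differed. Srebf2 was at 0.32 in the enriched and -0.36 in the standard environment pool, a difference of 0.68 or 1.60-fold (SD between probes 0.27, 4 probes), and its 4 probes ranged from 0.39 to 1.03. Srebf1, measured by 1 probe, was at 4.74 in the enriched and 4.86 in the standard environment pool, a difference of -0.12 that lies within the software's error. Its sign depended on the processing, with 0.07 after quantile normalization and 0.13 in the authors' deposited values. Srebf2 was positive under every one of its 9 alternatives, from 0.53 to 0.76.

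The brakes of the system were apart by little. Insig1, itself a target of SREBPs, was at -0.44 in the enriched and -0.59 in the standard environment pool, a difference of 0.15 with probes at 0.08 and 0.21. Insig2 was at 0.83 in the enriched and 1.23 in the standard environment pool, a difference of -0.40 or 1.32-fold lower, with both measured probes at -0.41 and -0.39. With its dim probe included, the difference was -0.06. Scap, the escort protein, was at 2.87 in the enriched and 2.62 in the standard environment pool, a difference of 0.25. The difference of Insig1 lay within the range of the 18 sterol enzymes, -0.13 to 1.14, and below their median of 0.36. It was smaller than those of Hmgcs1, Idi1, Sqle and Cyp51, which lay between 0.83 and 1.14. It was close to those of Mvd, at 0.14, and Mvk, at 0.16. The proteases that release SREBPs, encoded by Mbtps1 and Mbtps2, differed by 0.33 and 0.03.

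Fatty acid synthesis held the 3 members that were at least 2-fold lower. Acacb encodes the acetyl coenzyme A carboxylase of the mitochondrial surface, which is abundant in muscle and restrains fatty acid oxidation. It was at -3.25 in the enriched and 0.16 in the standard environment pool, a difference of -3.41, or 10.6-fold lower (SD between probes 0.26, 2 probes), with its probes at -3.59 and -3.23. With the normexp correction the difference was -2.56. Acaca, the cytosolic carboxylase that feeds fatty acid synthesis, was at -1.83 in the enriched and -1.73 in the standard environment pool, a difference of -0.10 with 4 probes from -0.37 to 0.04. The difference of Acacb minus that of Acaca was -3.31. Among all measured genes 1.34% were lower than Acacb. The skeletal muscle markers had a median difference of -8.16, and their part in the Acacb difference was not tested.

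Fasn and Thrsp were lower by similar amounts. Fasn, fatty acid synthase, was at 2.96 in the enriched and 4.18 in the standard environment pool, a difference of -1.23 or 2.34-fold lower, with its probes at -1.41 and -1.04. The brighter probe, on mm7 chromosome 11 at 120916191-120916250, had a level of 5.93 in the enriched and 6.97 in the standard environment pool. Thrsp, a nuclear protein of lipid-making tissues that is switched on by thyroid hormone and carbohydrate, was at 1.08 in the enriched and 2.42 in the standard environment pool, a difference of -1.34 or 2.53-fold lower on 1 probe. Fasn and Thrsp were at least 2-fold lower under all 10 alternatives.

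Me1, the malic enzyme that supplies NADPH to the synthase, was at 0.91 in the enriched and 1.64 in the standard environment pool, a difference of -0.72 with probes at -0.74 and -0.70. Acly, which cleaves citrate to acetyl coenzyme A, averaged -1.44 in the enriched and -1.53 in the standard environment pool, with probes at -0.23 and 0.42, the brighter one being lower in the enriched environment pool. Averaged over their probes, Acly and Acaca, the genes of the first steps, were near 0 while Fasn, Thrsp and Me1 were lower. By the brightest probe alone Acly differed by -0.23 and Acaca by -0.37, against -1.04 for Fasn, -1.34 for Thrsp and -0.70 for Me1. Of the 13 probes in this branch 11 had a negative difference, but probes of the same gene are not separate observations. The share over all probes is not given here. Counted by gene 5 of the 6 were lower, whereas 52.2% of all measured genes were higher. Among the 5 was Acaca at -0.10, within the software's error of 0.207. The branch took 0.0856% of the summed signal in the enriched and 0.155% in the standard environment pool. Fasn, Me1, Thrsp and Acly are also strongly expressed in fat tissue, and the measured brown adipocyte markers were all lower, while of 14 general adipocyte markers 11 were higher and 3 lower. The part of either in these differences was not tested.

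**Figure D3:**
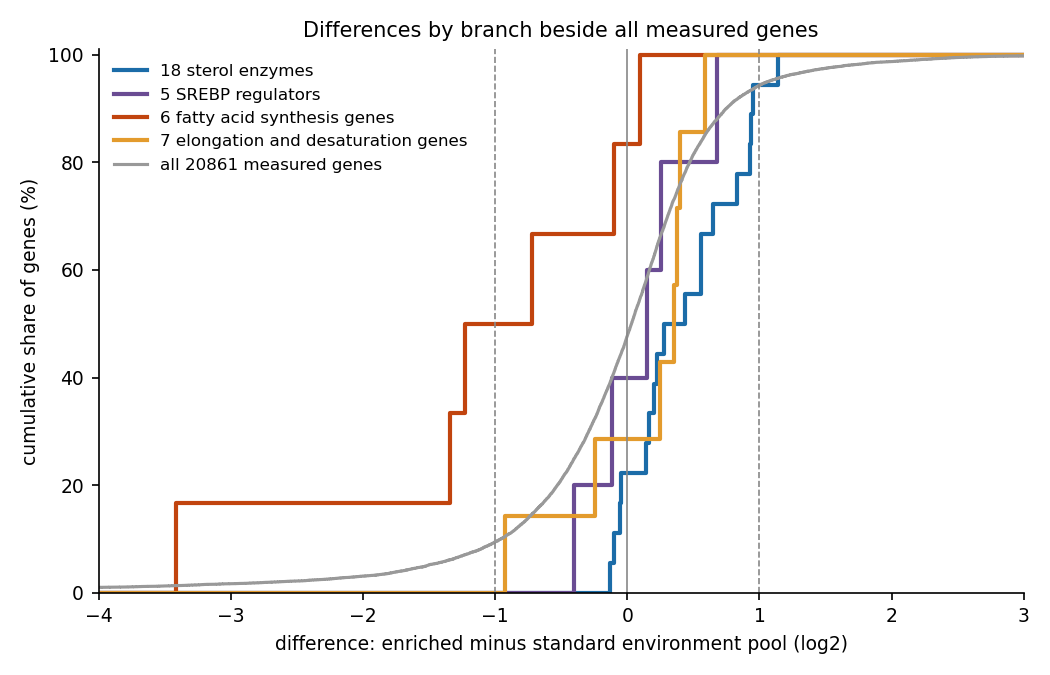
Cumulative share of genes (y axis, %) by enriched minus standard environment difference (x axis, log2) for the 4 groups of members and for all 20861 measured genes, with dashed lines at 2-fold. The sterol enzymes begin at -0.13 and reach 1.14, the fatty acid synthesis genes lie to the left with a median of -0.97, and the regulators lie between -0.40 and 0.68.

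Of the 7 elongases and desaturases 5 were higher and 2, Elovl6 and Fads1, lower in the enriched environment pool. Elovl6, which lengthens palmitate to stearate, was at 1.75 in the enriched and 2.67 in the standard environment pool, a difference of -0.92 or 1.90-fold lower on 1 probe. Elovl1, an elongase of very long saturated chains, differed by 0.37, and Elovl5, an elongase of polyunsaturated chains, by 0.35 with probes at 0.10 and 0.61. Scd1, a stearoyl coenzyme A desaturase that makes oleate, was at 4.60 in the enriched and 4.35 in the standard environment pool, a difference of 0.25. Its neighbouring paralogue Scd2 was at 5.06 in the enriched and 4.66 in the standard environment pool, a difference of 0.40. Each desaturase was measured by 1 probe, and whether these probes also bind the other transcript was not tested.

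The desaturases of polyunsaturated chains split. Fads2, which carries out the first desaturation of linoleate, was at -0.58 in the enriched and -1.17 in the standard environment pool, a difference of 0.59 or 1.51-fold. Fads1, which acts later on the same chain, was at -1.20 in the enriched and -0.95 in the standard environment pool, a difference of -0.24. Within the fatty acid genes Acacb, Fasn, Thrsp, Me1 and Elovl6 were thus lower in the enriched environment pool by over 1.5-fold. Fads2 was higher by 1.51-fold, just past the same line, and Scd2, Elovl1, Elovl5 and Scd1 had log2 differences of 0.25 to 0.40. Over the 13 fatty acid genes together the median was -0.10.

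Other genes of these pathways were spread around 0 as well. In a list of 20 further sterol synthesis genes, 19 were measured, 12 were higher and 7 lower, with a median of 0.22. Over all measured genes 52.2% were higher. None of the 19 was at least 2-fold higher and 2 were at least 2-fold lower, against 5.73% and 9.46% of all measured genes. Erg28, a scaffold of the sterol demethylation enzymes, differed by 0.92, close to Sc4mol at 0.93. Acat1, the mitochondrial thiolase of ketone body and isoleucine metabolism, differed by -1.65, and Idi2, an isomerase known in humans as typical of skeletal muscle, by -1.62. Idi2 was dim, at -4.90 in the enriched and -3.28 in the standard environment pool on 1 probe. The part of muscle in these differences was not tested.

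Sterol efflux and storage genes had a median of 0.09 over 20 measured genes, of which 2 were higher and 2 lower by 2-fold or more. Over all measured genes 5.73% were higher and 9.46% lower by that much. Cyp7b1, an oxysterol hydroxylase, was at -0.71 in the enriched and -3.98 in the standard environment pool, a difference of 3.27 or 9.65-fold. Ch25h, which makes an oxysterol that Cyp7b1 acts on, was at 0.65 in the enriched and -0.59 in the standard environment pool, a difference of 1.24. Cyp27a1, a mitochondrial sterol hydroxylase, differed by -1.24 and Osbp, an oxysterol-binding protein, by -1.12. These 4 genes were measured by 1 probe each.

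Genes that supply or use fatty acids had larger differences on the lower side. In the list of other fatty acid supply genes, 25 of 28 were measured, with a median of -0.11, and 2 were higher and 5 lower by 2-fold or more. Genes at large were also more often lower at that threshold, with 5.73% of all measured genes higher and 9.46% lower. Acss1, a mitochondrial acetate-activating enzyme, differed by -2.63, Mlxipl, the carbohydrate-responsive factor that drives lipogenic genes such as Fasn, by -2.31, and Mlycd, which removes malonyl coenzyme A, by -1.82. Acss2, the cytosolic acetate enzyme, differed by -1.21 and Ptpla, a dehydratase of elongation typical of muscle, by -1.01. Fads3 at 1.37 and the elongase Elovl7 at 1.37 were higher. Elovl3, an elongase of brown fat and skin, was not well above background in the enriched environment pool, against a level of -1.37 in the standard environment pool, and was at least 28.6-fold lower.

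Triglyceride synthesis genes had a median of -0.50 over 15 measured genes, 10 of them lower and 1 at least 2-fold lower. Over all measured genes 52.2% were higher, and 9.46% were at least 2-fold lower. Lpin1, a phosphatidate phosphatase that is also a muscle gene, was at 0.39 in the enriched and 2.90 in the standard environment pool, a difference of -2.51 over 4 probes. Mogat2, an acyltransferase, differed by -0.97 and Agpat5 by -0.95. Where these lists hold genes of muscle or brown fat, the markers of those tissues had median differences of -8.16 and -5.44. The part of those tissues in the values of these lists was not tested.

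**Figure D4:**
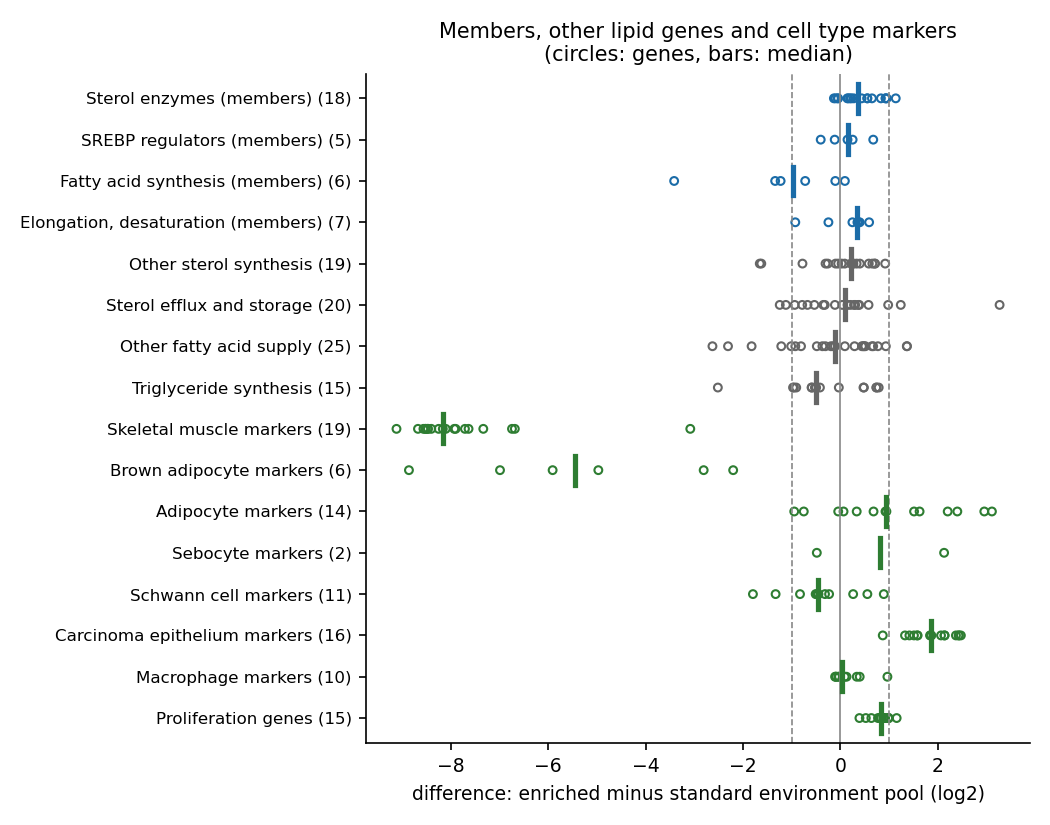
Enriched minus standard environment difference (log2) of the measured genes of each list (circles) with the median (bar), the number measured in brackets, and dashed lines at 2-fold. The 4 groups of members lie within -3.41 to 1.14, whereas the skeletal muscle and brown adipocyte markers centre on -8.16 and -5.44 and the carcinoma epithelium markers on 1.86.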

How the data were processed

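The labels' protocols describe Cy3-labelled total RNA, pooled from the tumours of 6 mice per housing before labelling, with each pool on 1 one-colour Agilent mouse array. Per the submitters' processing notes, Agilent Feature Extraction 10.7.1.1 made the deposited scanner files, which give each spot's intensity on a linear scale. The software subtracted a spatial background trend, which changes dim spots most, and removed a multiplicative one, per the file headers. It marked spots well above background, saturated (0 on either array) or outlying. A second deposited table holds log2 values for 30319 probes, the same probes as were well above background on both arrays here. It correlated with the scanner values at r = 1.00 in both pools. Its scaling and centring are not given in the sources used here, its medians are 8.56 (enriched) and 8.54 (standard), and it served as an alternative.

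From the log2 processed intensities each array's log2 75th percentile was subtracted (984 enriched and 753 standard on the linear scale). The 1639 control spots and 59 (enriched) and 64 (standard) outlying spots were left out, spots of a probe and then probes of a gene were averaged, and only probes bright enough for the software's background flag on both arrays were kept. Of the 43379 other spots, 77.4% (enriched) and 77.2% (standard) were well above background. Of 41174 probes, 22951 took a current symbol through their accession from the RefSeq table of GRCm38.p6. A gene bright on 1 array only is given as a bound against the lowest level well above background on the other (-6.21 enriched, -5.68 standard). The number of arrays limits the precision, and no p-value was computed. Calls are counts past 2-fold, and the steps were tested on simulated data. All members are described. Of other lists the 3 largest differences and any past 2-fold are named, and of marker lists the 3 brightest and the defining genes, some of which are not reported here. Mbtps1, Mbtps2, Elovl3, Otop1, Zic1, Pnpla2, Lpl and Aqp7 were named in addition, after their values were seen. The members, lists and alternatives were chosen with earlier results of these data known. The normexp alternative used limma 3.58.1.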

Additional observations from a re-analysis of the deposited data

How the results depend on the processing

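The 10 other ways of processing were normexp background correction, quantile normalization, median scaling, the 75th percentile over probes well above background on both arrays, the authors' deposited log2 table, no filter on dim probes, only genes with a mean level above 0, the brightest probe, gene names of the scanner files alone, and non-uniform spots left out. Of the members' differences, 30 of 36 kept their sign in every alternative that measured them, and Acat2, Mvk, Pmvk, Sc5d, Srebf1 and Acly did not. Of 344 such values 326 moved by less than 0.171, the median SD between probes of a gene, and 18 by more. A turned sign was looked for only in members past 2-fold, which were Cyp51, Acacb, Fasn and Thrsp, and none turned. Their values lie far from 0, so this could hardly come out otherwise. Many of the 344 could hardly move, so the count of 326 overstates the agreement. Gene names alone and the level cut left every member value as it was, and dropping the dim filter changed only Insig2. Median scaling, the other 75th percentile and leaving out non-uniform spots shifted all members by the same small amount. Such equal shifts also limit the branch medians, of which 77 moved by less than 0.171 and 3 by more. These 3 came with genes above a mean level of 0, which leaves fewer genes, and were 0.55 for the sterol enzymes, -0.12 for the regulators and -1.23 for fatty acid synthesis. The count of members at least 2-fold higher, 1 in the main values, was 2 with quantile normalization, median scaling and the deposited table, 0 with genes above a mean level of 0, and 8 at a 1.5-fold threshold. With normexp it was 1 as well, but the member was Sc4mol and not Cyp51. The count at least 2-fold lower, 3 in the main values, ranged from 2 to 4 over the 10 alternatives and was 5 at 1.5-fold. The median of all genes was 0.03 in the main values and -0.11 without a filter on dim probes, 0.11 with quantile normalization and 0.12 in the deposited table. No paired analysis was possible because each housing has 1 array and no replicates, and for the same reason no replicate could be left out. The cause of the other shifts was not tested.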
